A study of Mus musculus with 6 samples.

Results

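The genes described are markers of hepatic stellate cells and myofibroblasts, 10 of the 49671 gene IDs of the count table, taken by symbol through the mouse annotation. The 4 quiescent markers were Reln, Hand2, Hhip and Ngfr, and the 6 activated markers were Acta2, Tagln, Des, Pdgfrb, Pdgfra and Vim. Hepatic stellate cells lie between hepatocytes and the sinusoidal endothelium and store vitamin A as retinyl esters. After liver injury they lose these droplets, divide under platelet-derived growth factor (PDGF), and become contractile, collagen-secreting myofibroblasts. Genes that mark the resting cell are called quiescent markers here and genes that mark the myofibroblast activated markers, although desmin, vimentin and PDGF receptor beta are also made by resting rodent stellate cells and vimentin by many cell types.

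The values were RNA-seq counts from the livers of 6 male mice, 3 SHMT2 fl/fl controls (labelled WT) and 3 SHMT2 HKO mice (labelled KO). SHMT2 HKO mice carried the floxed Shmt2 allele on a C57BL/6J background together with Cre under the albumin promoter, which is active in hepatocytes, so the allele was not targeted in stellate cells themselves. The labels call the controls wild-type, and in the study these are mice homozygous for the floxed allele. All 6 mice were put on the AMLN diet (high in fat, cholesterol and fructose) when 4 weeks old, stayed on it for 18 weeks and were 22 weeks old at harvest.

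Libraries held between 23090837 and 34089722 gene counts. Shmt2, the mitochondrial serine hydroxymethyltransferase that was deleted, was counted 3866, 2897 and 3600 times in control livers against 587, 558 and 491 times in SHMT2 HKO (log2 fold change -2.04 ± 0.16, SE, n = 3 per group, edgeR quasi-likelihood test, adjusted p = 0.000639). The hepatocyte markers summed to between 56276 and 68909 CPM (reads of a gene per 1000000 gene counts) in SHMT2 fl/fl libraries and between 70471 and 111033 CPM in SHMT2 HKO libraries. Of these 8 markers 3 were called higher, but 1 without any single SHMT2 fl/fl mouse or SHMT2 HKO mouse 2, 6 without SHMT2 HKO mouse 3, 6 by DESeq2 and 0 with ERCC scaling. The labels name separate mice. The edgeR p-values test the genotype difference against variation among the 3 mice of each group, with variance estimates moderated across genes. Calls below are adjusted p under 0.05 in the edgeR quasi-likelihood test over 16089 genes, and CPM values are scaled by the trimmed mean of M values (TMM). In bulk liver, fewer cells of a type and less RNA per cell cannot be told apart.

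Reln and Hhip rose in SHMT2 HKO livers, Hand2 fell, and Ngfr did not pass the test. Pdgfra, Vim, Pdgfrb and Des fell, while Acta2 and Tagln, the contractile markers, did not pass the test. Thus 2 quiescent markers were called higher and 1 lower, and 0 activated markers were called higher (also 0 at an unadjusted p under 0.05, and 0 by DESeq2 and by limma-voom) and 4 lower, where 29.0% of all tested genes were called, 12.5% higher and 16.5% lower. The libraries of the groups did not overlap for 7 of the 10 markers, against 46.9% of all tested genes. The median log2 fold change was -1.03 over the activated markers and 0.03 over all tested genes. Over Reln, Hand2 and Ngfr it was 0.33, without Hhip, which passed the low-count filter only through the SHMT2 HKO group and with which it was 0.65.

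**Figure D1:**
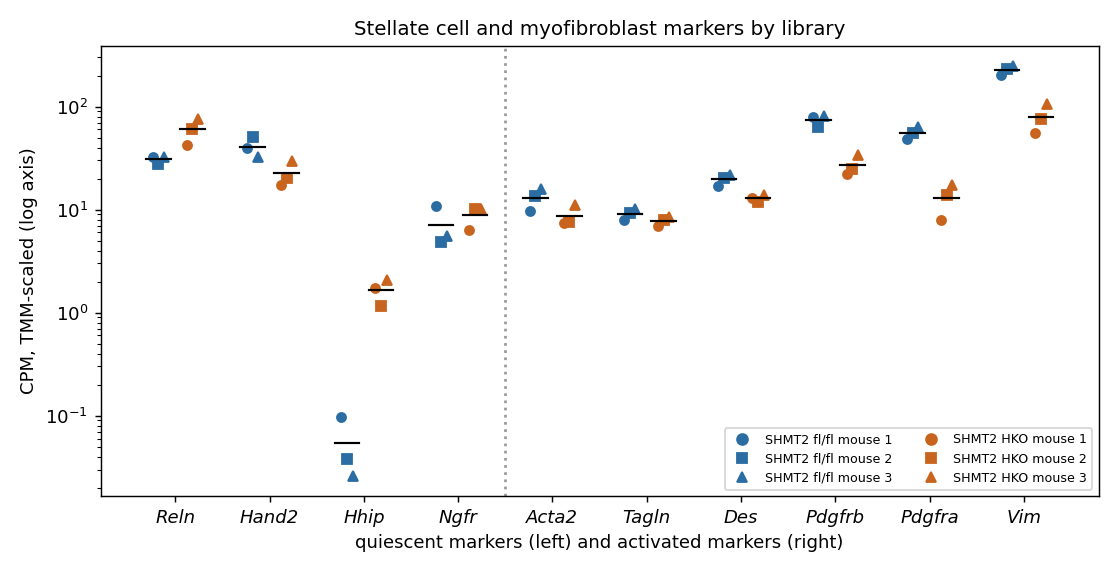
TMM-scaled CPM (log axis) of the 10 markers in each library, with SHMT2 fl/fl in blue, SHMT2 HKO in orange, 1 symbol shape per mouse number, and a bar at the mean of 3 mice. Hhip, Reln, Hand2, Des, Pdgfrb, Pdgfra and Vim have groups that do not overlap, and SHMT2 HKO mouse 3 is the highest of its group for all 10 markers.

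Reln (chr5:21884454-22344702, minus strand, GRCm38) encodes reelin, a large secreted glycoprotein that binds the lipoprotein receptors Vldlr and Lrp8. It measured 32.6, 27.4 and 32.2 CPM in SHMT2 fl/fl mice 1 to 3 and 42.7, 61.1 and 76.4 CPM in SHMT2 HKO mice 1 to 3. The groups did not overlap, and the SHMT2 HKO mice spread more widely (SD 16.9 CPM against 2.90 CPM). The log2 fold change was 0.97 ± 0.20 (SE, n = 3 per group, edgeR adjusted p = 0.0105). The call depended on the scaling. The median of all genes shifted by -0.42 (log2) when library size was used without TMM and by -0.72 when libraries were scaled to the ERCC spike-in RNAs. Under these scalings Reln had log2 fold changes of 0.57 (edgeR adjusted p = 0.123) and 0.36 (edgeR adjusted p = 0.597), while its distance above the median of all genes was 0.94 with TMM, 0.96 without it and 1.06 with ERCC scaling. Of the 6 tested genes of reelin signalling (Vldlr, Lrp8, Dab1, Crk, Crkl and Fyn), 0 were called by edgeR, 2 (Dab1 and Fyn) had an unadjusted p under 0.05, and 1 was called lower by DESeq2 and by limma-voom. Their log2 fold changes ranged from -1.82 for Dab1 (adjusted p = 0.0827) to 0.68 for Lrp8 (adjusted p = 0.505), and 1 was called lower without SHMT2 HKO mouse 1 or mouse 3.

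Hhip (chr8:79965851-80058006, minus strand) encodes a membrane protein that binds hedgehog ligands and is itself a transcriptional target of the pathway. Its reads were few in the control livers, with counts of 4, 1 and 1 in SHMT2 fl/fl mice against 41, 23 and 53 in SHMT2 HKO mice. Every SHMT2 HKO library was above every control library, and Hhip passed the low-count filter only through the SHMT2 HKO group. Summed over 3 libraries, 117 counts against 6 gave a rate ratio of 30.0 with an exact 95% interval of 13.4 to 83.5, which covers counting error only. The fitted log2 fold change was 4.79 ± 0.54 (SE, n = 3 per group, edgeR adjusted p = 0.00127), a value that depends on the prior count at such low control counts. Its level stayed low in both groups, at 1.66 ± 0.47 CPM (SD, n = 3) in SHMT2 HKO livers.

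Of 12 other tested hedgehog genes, 1 was called higher and 5 lower (median log2 fold change -0.75). Over all tested genes 12.5% were called higher and 16.5% lower. The co-receptors Boc and Cdon fell by 2.14 and 1.70 on the log2 scale (adjusted p = 0.00223 and 0.00184), the transcription factors Gli2 and Gli1 fell by 1.81 and 1.69 (adjusted p = 0.013 and 0.0147), and the signal transducer Smo fell by 1.48 (adjusted p = 0.00104). Gas1, the hedgehog co-receptor with the highest CPM of the list, had a log2 value of -0.23 (adjusted p = 0.341) and Ptch1, the main receptor, at 0.50 (adjusted p = 0.223). Of the hedgehog ligand genes, Ihh lay between 2.03 and 8.66 CPM over the 6 libraries, and Shh was too low to be tested, at 0.0376 to 0.467 CPM. The count called higher was 2 without SHMT2 HKO mouse 2 and 0 with ERCC scaling, and the count called lower was 8 without TMM and 3 with a filter of at least 10 counts in every library.

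Hand2 (chr8:57320983-57324633, plus strand) encodes a basic helix-loop-helix transcription factor that marks stellate cells in the liver. It fell, from 39.8, 50.8 and 32.2 CPM in SHMT2 fl/fl livers to 17.3, 20.4 and 29.9 CPM in SHMT2 HKO livers, with the highest SHMT2 HKO value close under the lowest control. The log2 fold change was -0.86 ± 0.23 (SE, n = 3 per group, edgeR adjusted p = 0.0276). The call was lost without SHMT2 fl/fl mouse 1 (-0.88, adjusted p = 0.0748), without SHMT2 fl/fl mouse 2 (-0.68, adjusted p = 0.0981) and without SHMT2 HKO mouse 2 (-0.79, adjusted p = 0.0942). Hand2 shares 461 exon bases, 19.6% of its exon length, with Hand2os1 on the opposite strand. The library kit does not mark strand, so reads of that stretch cannot be assigned to either gene. Hand2os1 was also lower, at 17.5, 18.2 and 13.5 CPM against 6.49, 6.89 and 9.49 CPM (log2 fold change -1.10 ± 0.20, adjusted p = 0.00582).

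Ngfr (chr11:95568818-95587735, minus strand) encodes p75, a receptor for neurotrophins. Its groups overlapped, at 10.8, 4.82 and 5.48 CPM against 6.28, 10.1 and 10.2 CPM, with SHMT2 fl/fl mouse 1 the highest of all 6. The log2 fold change was 0.33 ± 0.34 (95% interval -0.44 to 1.10, edgeR adjusted p = 0.503), and its sign turned to -0.10 without TMM and -0.35 with ERCC scaling. Of 12 tested neurotrophin genes 1 was called higher and 4 lower (median log2 fold change -0.81), where 12.5% of all tested genes were called higher and 16.5% lower. The neurotrophin Ntf5 and the p75-binding protein Bex3 fell by 2.61 and 1.31 on the log2 scale (adjusted p = 0.0148 and 0.0123). The count called higher was 0 with ERCC scaling and without SHMT2 fl/fl mouse 1, SHMT2 fl/fl mouse 3 or SHMT2 HKO mouse 2, and the count called lower was 2 without SHMT2 fl/fl mouse 2 or mouse 3.

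Upstream sequences are shown for the 3 quiescent markers that passed the test and for Pdgfra, so that genes that moved in opposite directions can be read side by side. Each is the 250 bases before the RefSeq start in GRCm38.p6, written 5′ to 3′ on the gene's strand, with GC boxes (GGGCGG on either strand) in capitals. RefSeq windows were examined for 8 of the 10 markers. Pdgfrb and Tagln were left out, so their upstream sequences were not tested.
Reln, chr5:22344706-22344955, minus strand: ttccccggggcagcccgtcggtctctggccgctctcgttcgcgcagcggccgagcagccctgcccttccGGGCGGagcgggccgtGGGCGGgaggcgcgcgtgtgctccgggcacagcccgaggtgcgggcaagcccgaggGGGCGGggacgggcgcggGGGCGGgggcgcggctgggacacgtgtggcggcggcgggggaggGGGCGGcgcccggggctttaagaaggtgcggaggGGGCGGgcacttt
Hhip, chr8:80058009-80058258, minus strand: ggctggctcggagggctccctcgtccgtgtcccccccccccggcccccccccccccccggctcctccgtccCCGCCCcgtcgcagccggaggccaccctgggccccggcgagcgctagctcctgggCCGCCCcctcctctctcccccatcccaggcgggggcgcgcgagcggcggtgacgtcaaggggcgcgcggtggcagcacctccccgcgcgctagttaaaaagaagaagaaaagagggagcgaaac
Hand2, chr8:57320733-57320982, plus strand: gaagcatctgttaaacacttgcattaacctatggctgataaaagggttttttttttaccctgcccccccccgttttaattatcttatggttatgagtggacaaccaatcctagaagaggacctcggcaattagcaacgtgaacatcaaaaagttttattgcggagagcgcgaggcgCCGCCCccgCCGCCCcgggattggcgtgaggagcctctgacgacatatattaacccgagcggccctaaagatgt
Pdgfra, chr5:75152001-75152250, plus strand: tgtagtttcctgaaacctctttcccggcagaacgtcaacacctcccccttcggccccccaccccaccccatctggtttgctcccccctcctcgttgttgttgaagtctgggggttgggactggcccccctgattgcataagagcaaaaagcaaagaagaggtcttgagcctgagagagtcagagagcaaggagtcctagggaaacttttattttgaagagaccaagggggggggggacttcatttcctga
The Reln window held 6 GC boxes and was 80.0% G and C, the Hhip window held 2 at 76.0%, the Hand2 window held 2 at 49.2%, and the Pdgfra window held 0 at 54.4%. Of the windows not shown, that of Ngfr, which was not called, held 4 at 70.4%. The Des window held 2 at 67.2%, and the Vim and Acta2 windows held 0 at 58.4% and 53.6%. GC boxes thus occurred before markers that rose, that fell and that were not called. A GC box was found in 32.7% of 32851 RefSeq windows of this length. The motif bound by GLI factors, GACCACCCA on either strand, was in 0.225% of all windows and in 0 of the 8 marker windows, Hhip included.

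Pdgfra (chr5:75152292-75198215, plus strand) and Pdgfrb (chr18:61045150-61085061, plus strand) encode the PDGF receptors. Pdgfra measured 48.4, 55.7 and 62.7 CPM in SHMT2 fl/fl livers and 7.94, 13.8 and 17.2 CPM in SHMT2 HKO livers, a fall of 2.10 ± 0.26 on the log2 scale (SE, n = 3 per group, edgeR adjusted p = 0.00173). Pdgfrb measured 79.01, 63.2 and 80.6 CPM against 22.2, 25.0 and 33.9 CPM, a fall of 1.46 ± 0.18 (edgeR adjusted p = 0.00165). Neither gene's groups overlapped, and both kept their call in all 15 alternatives run, with log2 fold changes between -2.66 and -1.83 for Pdgfra and between -2.08 and -1.33 for Pdgfrb. Pdgfra was thus 4.28-fold lower and Pdgfrb 2.75-fold lower in SHMT2 HKO livers. The counts of Pdgfra per kilobase of exon, divided by those of Pdgfrb in the same library, were 0.335, 0.482 and 0.425 in SHMT2 fl/fl and 0.196, 0.303 and 0.278 in SHMT2 HKO, a ratio that needs no scaling between libraries.

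Of the PDGF ligand list, 4 of 5 genes were called lower and 0 higher by edgeR (0 higher also by DESeq2, by limma-voom and at an unadjusted p under 0.05, median log2 fold change -2.22). Among all tested genes 16.5% were called lower. Pdgfb, the ligand of PDGF receptor beta, measured 23.1, 31.6 and 24.7 CPM in SHMT2 fl/fl livers and 4.46, 5.11 and 7.44 CPM in SHMT2 HKO livers, a fall of 2.22 ± 0.22 (adjusted p = 0.000943). Pdgfd and Pdgfc fell by 2.54 and 1.56 (adjusted p = 0.00268 and 0.00261), and Pdgfrl, a receptor-like gene kept on this list, by 2.48 (adjusted p = 0.00214). Pdgfa, the gene of this list with the highest mean CPM, was not called (log2 fold change -0.54, adjusted p = 0.0818).

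**Figure D2:**
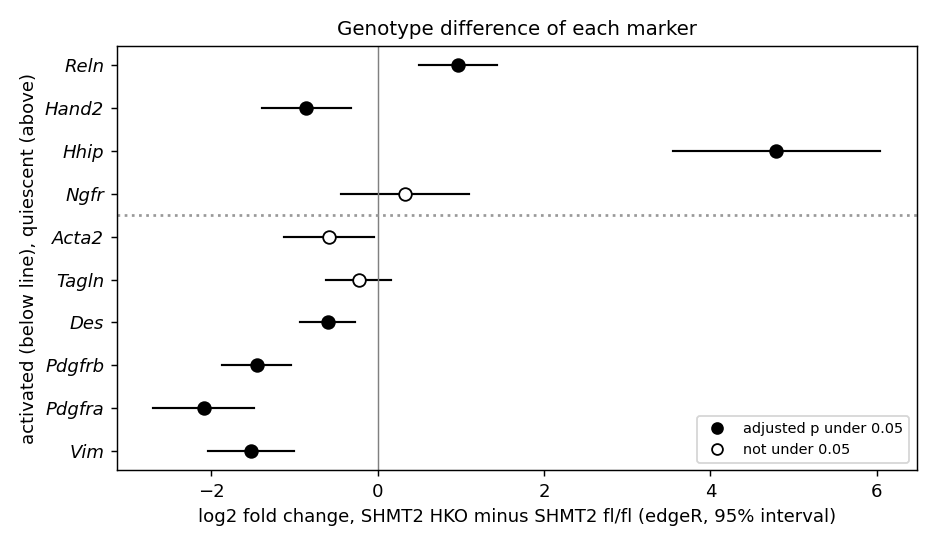
Log2 fold change (SHMT2 HKO minus SHMT2 fl/fl) of the 10 markers with its 95% interval from edgeR, quiescent markers above the dotted line and activated markers below it. Filled points passed the adjusted p threshold of 0.05, and the activated markers run from -0.23 for Tagln to -2.10 for Pdgfra.

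Vim (chr2:13573927-13582826, plus strand) and Des (chr1:75360329-75368579, plus strand) encode the intermediate filament proteins vimentin and desmin. Vim, the activated marker with the highest CPM, measured 202, 232 and 245 CPM in SHMT2 fl/fl livers and 55.5, 75.9 and 105 CPM in SHMT2 HKO livers, a fall of 1.52 ± 0.23 (SE, n = 3 per group, edgeR adjusted p = 0.00289). It kept its call in all 15 alternatives run. Des measured 17.0, 20.2 and 21.7 CPM against 12.9, 11.9 and 14.0 CPM, a fall of 0.60 ± 0.14 (edgeR adjusted p = 0.0166). The Des groups did not overlap, but its call was lost without SHMT2 fl/fl mouse 2 (adjusted p = 0.0628), without SHMT2 fl/fl mouse 3 (adjusted p = 0.0804), without SHMT2 HKO mouse 2 (adjusted p = 0.0603) and with ERCC scaling (-1.28, adjusted p = 0.085). Per kilobase, the ratio of Des to Vim was 0.106, 0.110 and 0.112 in SHMT2 fl/fl and 0.293, 0.198 and 0.168 in SHMT2 HKO. Among 7 tested partners of these filaments, edgeR called 1 lower, Cryab, a small heat shock protein that chaperones desmin (log2 fold change -1.66 ± 0.21, adjusted p = 0.0018). That count was 2 by DESeq2 and by limma-voom, 2 with ERCC scaling and without SHMT2 HKO mouse 1, 3 without SHMT2 HKO mouse 3 and 4 without TMM. Over all tested genes 16.5% were called lower in the main test.

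Acta2 (chr19:34241090-34255590, minus strand) and Tagln (chr9:45929619-45936058, minus strand) encode alpha smooth muscle actin, the usual histological sign of a myofibroblast, and the actin-binding protein transgelin. Acta2 measured 9.64, 13.7 and 15.8 CPM in SHMT2 fl/fl livers and 7.34, 7.60 and 11.02 CPM in SHMT2 HKO livers, and SHMT2 HKO mouse 3 lay above SHMT2 fl/fl mouse 1. Its log2 fold change was -0.59 ± 0.24 (95% interval -1.13 to -0.05, edgeR adjusted p = 0.0963). It passed the test without SHMT2 HKO mouse 3 (-0.82, adjusted p = 0.027) and with library size scaling without TMM (-0.98, adjusted p = 0.0295). Tagln measured 7.88, 9.29 and 10.2 CPM against 7.003, 7.90 and 8.38 CPM, also with overlap, and had a log2 fold change of -0.23 ± 0.17 (95% interval -0.62 to 0.15, edgeR adjusted p = 0.34). It passed the test without TMM (-0.64, adjusted p = 0.0431). For Tagln, 62.4% of the exon length is shared with the antisense gene Gm48529, which was counted at 41 to 114 reads per library against 156 to 390 for Tagln, so its counts are uncertain.

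Serum response factor (SRF), which drives contractile genes, binds CArG boxes, here CC, 6 bases with at most 1 G or C, then GG. They were found in 8.59% of RefSeq windows, and among the 8 marker windows in that of Acta2 alone, which held 2, shown in capitals with 10 bases on either side in GRCm38.p6.
Acta2, chr19:34255438-34255467, minus strand: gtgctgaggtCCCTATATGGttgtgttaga
Acta2, chr19:34255388-34255417, minus strand: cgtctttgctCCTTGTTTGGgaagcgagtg
The boxes start 84 and 34 bases before the RefSeq start. The GENCODE gene starts 217 bases before the RefSeq start, so both boxes lie inside its bounds. Whether they lie in an exon was not tested. Of 13 other smooth muscle contractile genes, 1 was called higher and 4 lower (median log2 fold change -0.45). Among all tested genes 12.5% were called higher and 16.5% lower. Tpm2, a tropomyosin, rose by 1.62 ± 0.22 (adjusted p = 0.00229). Synpo2, Lmod1 and Smtn fell by 1.08, 1.07 and 0.70 (adjusted p = 0.0292, 0.038 and 0.0335), as did Tpm1, by 0.62 (adjusted p = 0.035). No gene of this list was called lower without SHMT2 fl/fl mouse 3 or without SHMT2 HKO mouse 2, and 1 was without SHMT2 fl/fl mouse 1 or mouse 2. With ERCC scaling 0 genes of this list were called higher and 3 lower, and without TMM 1 was called higher and 7 lower. Of SRF and its coactivators, Mrtfa fell by 0.75 (adjusted p = 0.012), and Srf itself was not called (log2 fold change -0.23, adjusted p = 0.222). The count called lower on that list of 3 tested genes was 0 without SHMT2 fl/fl mouse 2 and with ERCC scaling, and 2 without SHMT2 HKO mouse 3 and without TMM.

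Levels can be set beside each other between genes only per kilobase of exon. On that scale the order in SHMT2 fl/fl livers was Vim (47.7 ± 4.66 CPM per kilobase, SD, n = 3), Hand2 (17.4 ± 3.97), Pdgfrb (13.6 ± 1.76), Acta2 (5.93 ± 1.42), Pdgfra (5.55 ± 0.71), Des (5.23 ± 0.64), Tagln (4.59 ± 0.58), Ngfr (2.04 ± 0.95), Reln (1.29 ± 0.12) and Hhip (0.00593 ± 0.0042). Ranges overlapped between Hand2 and Pdgfrb and between each neighbouring pair from Acta2 to Tagln. In SHMT2 HKO livers Vim (16.6 ± 5.25), Hand2 (9.58 ± 2.78) and Pdgfrb (4.93 ± 1.12) stayed first, followed by Acta2 (3.94 ± 0.94), Tagln (3.90 ± 0.35) and Des (3.44 ± 0.28). Ranges overlapped between Vim and Hand2 and between each neighbouring pair from Pdgfrb to Des. Pdgfra (1.30 ± 0.47) now came after Ngfr (2.57 ± 0.65) and Reln (2.53 ± 0.71), which overlapped each other but not Pdgfra, and before Hhip (0.183 ± 0.051). Annotated exons of all isoforms set the length, 23738 bases for Reln, so the level of a gene read mostly from a short isoform is understated.

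Ratios within a library do not depend on how libraries are scaled. Per kilobase, Reln relative to Pdgfrb was 0.0952, 0.1001 and 0.0922 in SHMT2 fl/fl livers and 0.445, 0.564 and 0.520 in SHMT2 HKO livers, a 5.32-fold higher mean. Reln relative to Pdgfra went from 0.284, 0.208 and 0.217 to 2.27, 1.86 and 1.87, an 8.48-fold higher mean. Among the quiescent markers themselves, Reln relative to Hand2 was 0.0810, 0.0534 and 0.0990 against 0.244, 0.296 and 0.253, again without overlap. Acta2 relative to Des overlapped between groups, with means of 1.12 ± 0.14 and 1.14 ± 0.19 (SD, n = 3 per group), while Acta2 relative to Vim was higher in every SHMT2 HKO library (0.286, 0.216 and 0.227) than in any control (0.103, 0.128 and 0.139). With 3 mice against 3, an exact two-sided permutation test cannot go below p = 0.1, so these ratios are descriptions. The mean log2 CPM of the activated markers minus that of the quiescent markers other than Hhip was 0.39, 0.92 and 1.17 in SHMT2 fl/fl libraries and -0.29, -0.51 and -0.46 in SHMT2 HKO libraries.

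**Figure D3:**
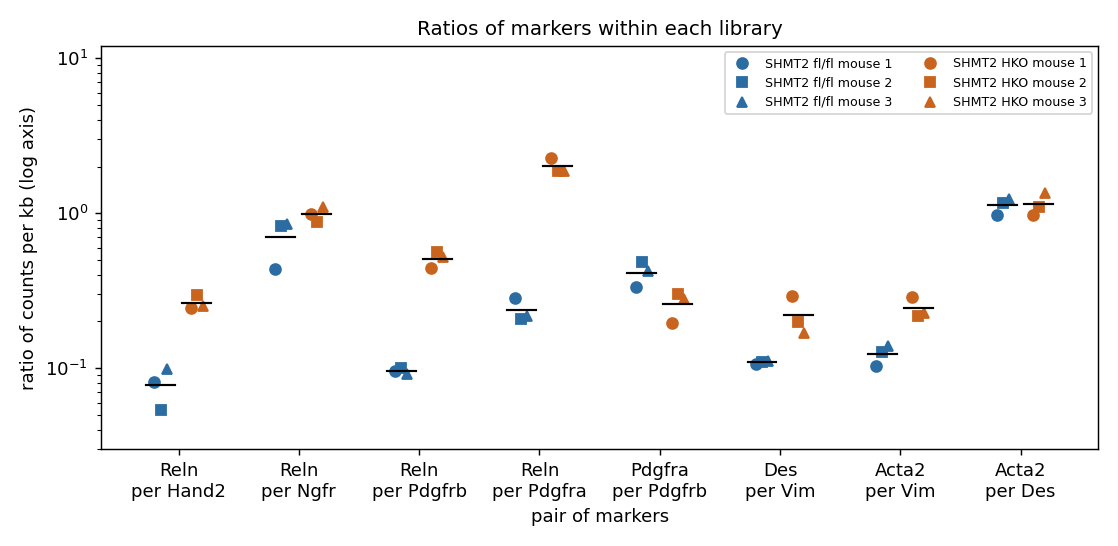
Ratio of counts per kilobase of exon between pairs of markers in the same library (log axis), SHMT2 fl/fl in blue and SHMT2 HKO in orange, with a bar at the mean of 3 mice. Reln is higher relative to Hand2, Pdgfrb and Pdgfra in every SHMT2 HKO library, whereas Acta2 relative to Des lies between 0.971 and 1.35 in all 6 libraries.

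SHMT2 HKO mouse 3 had the highest value of its group for all 10 markers, with TMM, with library size alone and with ERCC scaling, and SHMT2 HKO mouse 1 had the lowest for 8 of them with TMM. In SHMT2 fl/fl livers, mouse 3 had the highest TMM-scaled CPM for all 6 activated markers and mouse 1 the lowest for 5 of them. By the root mean square difference of centred log2 CPM over 6 libraries, the closest pairs of markers were Acta2 with Des (0.172) and Pdgfrb with Vim (0.185). Over all tested genes, the profiles nearest to Reln were those of Gbe1 (0.0959), Aldh3a2 (0.0984) and Gpr182 (0.103), and those nearest to Pdgfra were H2-Eb1 (0.121), Olfml3 (0.132) and Ppic (0.137). Hhip had no close neighbour, with Irx1 the nearest at 0.438.

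Of 18 other stellate cell genes, 4 were called higher and 4 lower (median log2 fold change 0.10). The shares over all tested genes were 12.5% higher and 16.5% lower. Colec10, a collectin, rose from 0.636, 0.865 and 0.913 CPM to 11.9, 21.2 and 21.9 CPM (log2 fold change 4.51 ± 0.31, adjusted p = 0.000639), and Angptl6, a secreted angiopoietin-like protein, rose by 2.52 ± 0.24 (adjusted p = 0.000912). Vipr1 and Ecm1, a peptide receptor and a secreted matrix protein, rose by 0.91 and 0.70 (adjusted p = 0.0119 and 0.0115). Among those that fell, Cygb, the globin of stellate cells, dropped by 1.88 ± 0.18 (adjusted p = 0.000912). Adamtsl2 and Tcf21 fell by 1.81 and 1.40 (adjusted p = 0.00966 and 0.0139). Lrat, which makes the stored retinyl esters, overlapped between groups at 10.3 to 30.2 CPM and 10.7 to 30.5 CPM (log2 fold change 0.03 ± 0.47, adjusted p = 0.975). The count called higher was 2 without TMM, with ERCC scaling and without SHMT2 fl/fl mouse 3.

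Of 15 other tested myofibroblast genes, 13 were called lower and 0 higher by edgeR (0 higher also by DESeq2, by limma-voom and at an unadjusted p under 0.05, median log2 fold change -1.66). Over all tested genes 16.5% were called lower. Col1a1, a chain of type I collagen, measured 396, 368 and 383 CPM in SHMT2 fl/fl livers and 46.3, 90.0 and 180 CPM in SHMT2 HKO livers, a fall of 1.86 ± 0.43 (adjusted p = 0.0167). Lum, Col6a3 and Fbn1, which encode matrix proteins, fell by 2.38, 2.24 and 2.16 (adjusted p = 0.00646, 0.00258 and 0.00128), and Sparc, the gene of this list with the highest CPM, by 1.30 (adjusted p = 0.00349). Fap and Postn were not called, at log2 fold changes of -1.38 (adjusted p = 0.0644) and -0.13 (adjusted p = 0.789). Of 9 tested mesenchymal transcription factors 4 were called lower and 0 higher (0 also at an unadjusted p under 0.05, by DESeq2 and by limma-voom), among them Meox1 (-3.89 ± 0.24, adjusted p = 0.000532) and Prrx1 (-1.86 ± 0.23, adjusted p = 0.00157).

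**Figure D4:**
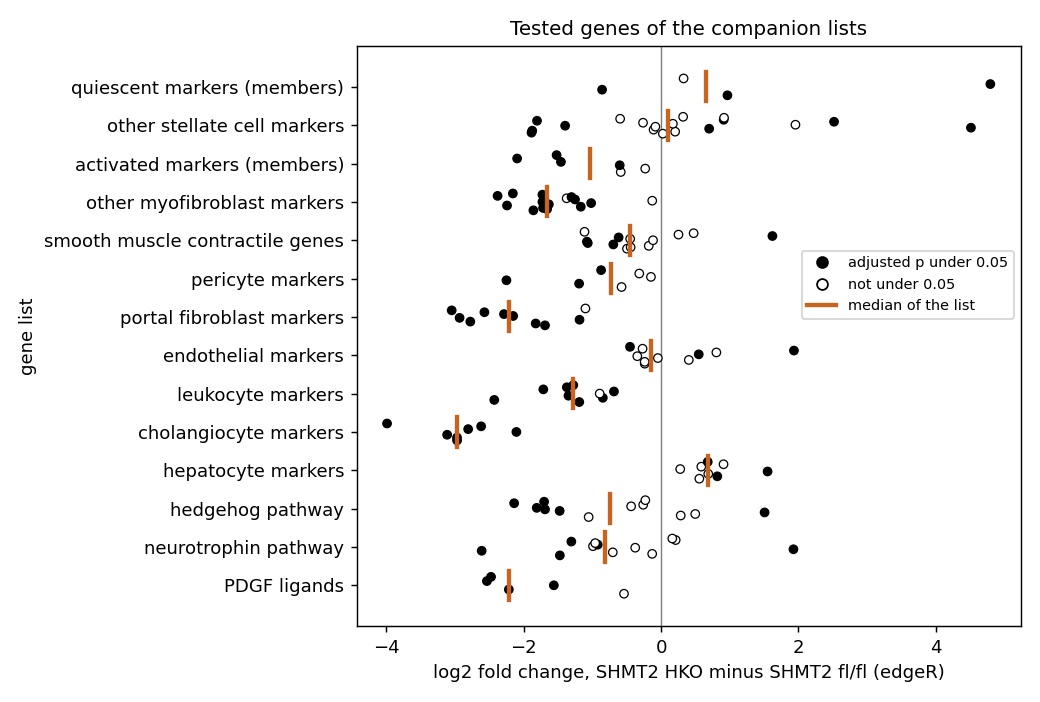
Log2 fold change (SHMT2 HKO minus SHMT2 fl/fl) of every tested gene of 14 lists, filled where adjusted p was under 0.05, with the median of each list as an orange line. The activated markers and the other myofibroblast genes lie mostly below 0 (medians -1.03 and -1.66), and the other stellate cell markers lie on both sides of 0 (median 0.10).

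Several of the 10 markers are also made by other cells of the liver, whose own markers differed between genotypes. The counts below stand beside 12.5% of all tested genes called higher and 16.5% called lower. Pericyte markers were lower for 3 of 6 genes (summed 132 to 162 CPM in SHMT2 fl/fl, 77.7 to 128 CPM in SHMT2 HKO), with Cspg4, Notch3 and Mcam called, and portal fibroblast markers were lower for 9 of 10 (291 to 346 CPM against 48.0 to 83.3 CPM, median log2 fold change -2.22). Leukocyte markers, from cells that also make vimentin, were lower for 8 of 9 (633 to 796 CPM against 220 to 362 CPM), and cholangiocyte markers for 7 of 7 (971 to 1209 CPM against 130 to 248 CPM). Endothelial markers were higher for 2 of 10 and lower for 1 (337 to 360 CPM against 340 to 416 CPM), a balance that turned with the scaling, to 1 higher and 5 lower without TMM and 0 of either with ERCC scaling. Without SHMT2 HKO mouse 1 it was 4 higher and 0 lower, and 0 were lower without any single SHMT2 fl/fl mouse. Lymphatic endothelial markers, from cells that also make reelin, were lower for 2 of 4 (142 to 169 CPM against 118 to 187 CPM), and for 1 without SHMT2 fl/fl mouse 3 or with the filter of 10 counts. Whether other cells of the liver also made the genes summed in these lists was not tested. Mesothelial markers were called for 0 of 5 by edgeR, DESeq2 and limma-voom, with 0 at an unadjusted p under 0.05 (9.55 to 25.3 CPM against 7.36 to 15.2 CPM). Schwann cell markers, which go with Ngfr in nerves, were called for 0 of 3 by edgeR, DESeq2 and limma-voom. At an unadjusted p under 0.05, 2 were higher and 1 lower. They summed to 3.89 to 4.82 CPM in SHMT2 fl/fl, and to 41.9, 5.22 and 4.88 CPM in SHMT2 HKO mice 1 to 3, so the high sum was that of mouse 1 alone. Without SHMT2 HKO mouse 1, a Schwann cell marker was called higher and a mesothelial marker lower. No marker list had a gene at 0 in all 6 libraries. The part of these cells in the values of the 10 markers was not tested.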

How the data were processed

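Liver RNA of 6 mice was sequenced as paired reads with a library kit that does not mark strand. Per the labels and the study's methods, the authors trimmed reads with Trimmomatic 0.36, aligned them with STAR 2.5.2b to GRCm38 with ERCC spike-in sequences, and deposited raw counts of unique gene hits per Ensembl gene. The submitters' processing notes also name featureCounts of Subread 1.5.2. The strand setting of the counting is not given in the sources used here.

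Counts were tested with edgeR 4.0.16 (quasi-likelihood, filterByExpr, TMM, robust dispersions, Benjamini-Hochberg over 16089 genes) in R 4.3.3. Symbols, locations and exon lengths came from GENCODE M21 (GRCm38), and 259 gene IDs without an entry held 0.0116% of counts. CPM per kilobase used the union of annotated exons. SE is that of the log2 fold change, and errors after CPM are SD. Alternatives were DESeq2 1.42.0, limma-voom (limma 3.58.1, the test of the study's methods), library size alone, upper-quartile and ERCC scaling, other filters, non-robust dispersions, a replicate block, and leaving out each mouse. In simulated counts with 200 genes changed 4-fold, the test recovered 85.5% (15703 genes tested). Of the calls 8.06% were false, more than the threshold of 0.05 aims for. In the data 4663 genes were called, so far fewer genes changed in the simulation. Smaller changes, such as those of Reln, Hand2 and Des, were not simulated.

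All 10 markers were named. From each companion list the up to 4 called genes with the largest change and the gene with the highest CPM could be named. Not all of these were named, and several lists have no gene named. Ptch1, Smo, Ihh, Shh, Vipr1, Ecm1, Adamtsl2, Tcf21, Lrat, Fap, Postn, Tpm1, Srf, Dab1, Lrp8 and Fyn were named after their values were seen. Some genes of these lists are not reported here. The members and lists were chosen with earlier results of these data known. The median without Hhip was added after seeing the data.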

Additional observations from a re-analysis of the deposited data

How the results depend on the processing

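The calls of Pdgfra, Pdgfrb and Vim were kept in all 15 alternatives. Hhip stayed called in the 14 that tested it. It passed the low-count filter only through the SHMT2 HKO group, so these calls add no separate support. Of the quiescent markers, 1 was called higher in place of 2 with library size without TMM, with ERCC scaling and with a filter of at least 10 counts in every sample, which left Hhip untested. The count of quiescent markers called lower was 1 in the main test and lay between 0 and 1 when 1 mouse was left out. The number of activated markers called lower was 4 in the main test, 6 with library size without TMM, 3 with ERCC scaling, between 3 and 5 when 1 mouse was left out, and 4 in the remaining alternatives. Ngfr reversed to -0.0956 without TMM and to -0.3499 with ERCC scaling.

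The replicate numbers did not pair the mice, since deviations of same-numbered mice correlated at -0.046, 0.013 and -0.077. With the replicate number as a block, 3584 genes were called against 4663, and the count of quiescent markers called lower was 0 (Hand2 -0.87, adjusted p = 0.0509), with no other call of a marker changed. Over all genes, leaving out a mouse gave between 2426 calls (without SHMT2 fl/fl mouse 3) and 5597 calls (without SHMT2 HKO mouse 3), and ERCC scaling gave 2866. Hhip is limited by depth, with 1 to 4 counts per control library. Among the companion lists, 66 of 570 counts changed by more than 1.5 times, or from or to 0. The 570 include counts of 0 that stayed 0, so the share is no measure of stability.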
